A study of Drosophila melanogaster with 18 samples.

Results

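The chorion protein genes of Drosophila melanogaster are described here across 6 groups of whole flies. They are 9 of the 16747 entries in the deposited count tables and were taken by symbol: Cp7Fa, Cp7Fb, Cp7Fc, Cp36 and Cp38 on the X chromosome, and Cp18, Cp15, Cp19 and Cp16 on chromosome arm 3L. All flies were 5 days old. INT and NINT flies came from generation F12 and carry a label of genetic heterogeneity. The F0 flies are founders, whose label lists 10 strains: Oregon-R-C, DGRP-100, BER_2 and Harwich, then Canton-S, Wild_1A and w1118, and with them multiple wing hairs (mwh), flare3 (flr3) and Oregon R flare3 (ORR, flr3). Each group has 3 female and 3 male libraries. What INT and NINT abbreviate is not stated in the labels; the study as a whole is titled as one on intelligence and lifespan. Nor is it stated whether replicates were separate cultures, so the p-values measure the spread between these samples, which may be technical. All tests across genes are edgeR quasi-likelihood tests with Benjamini-Hochberg adjustment, and a gene is called at an adjusted p under 0.05. Levels are CPM, counts scaled to a common library size, on TMM-scaled library sizes of the same sex, unless plain totals are named.

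The chorion is the outer layer of the insect eggshell. Follicle cells of the ovary secrete it in the last stages of egg chamber development, after they have laid down the vitelline membrane. Shortly before, these cells amplify both chorion gene clusters by repeated firing of replication origins inside them, which raises the gene copy number. Cp36 and Cp38 encode major proteins that are made early in choriogenesis. The genes of the 3L cluster follow, with Cp15 among the last. In an adult fly these genes are markers of late follicles in the ovary.

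The X cluster spans 12.3 kb of dm6 (X, 8470888 to 8483174) and the 3L cluster 5.8 kb (3L, 8726791 to 8732599). All 9 genes lie on the plus strand. In order along the X they are Cp7Fa (8470888 to 8473087), Cp7Fb (8473837 to 8476071), Cp7Fc (8477117 to 8478320), Cp36 (8479319 to 8480523) and Cp38 (8481837 to 8483174). On 3L the order is Cp18 (8726791 to 8727613), Cp15 (8728481 to 8729066), Cp19 (8729865 to 8730604) and Cp16 (8731944 to 8732599). The gene CG33223 (X, 8465690 to 8483885) covers the whole X cluster on the opposite strand. No source used here gives the strand setting of the counting. Whether exons of CG33223 overlap those of the chorion genes was not examined, so it is not known whether they share reads. CG33223 averaged 0.781 CPM in INT females, 1.1 CPM in NINT females and 0.435 CPM in F0 females, below each gene of the X cluster. In males it averaged 11.3 CPM in INT, 8.65 CPM in NINT and 21.9 CPM in F0, more than any gene of the X cluster in the male libraries with few chorion reads.

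Libraries held 31605198 to 35425356 counts in INT females, 40916752 to 47180951 in NINT females, 50154595 to 58332629 in F0 females and 31787571 to 39227140 in males. Several libraries stand apart. Ribosomal RNA took 10.4% to 23.2% of the counts in INT females, 5.94% to 7.36% in NINT females and 20.3% to 36.3% in F0 females. On plain library totals Act88F, the actin gene of flight muscle, reached 17.8, 72.2 and 1794 CPM in INT females 1 to 3, 5.33 to 10.5 CPM in NINT females, and 2273, 3108 and 262 CPM in F0 females 1 to 3. Yp1, Yp2 and Yp3, which encode the yolk proteins made in female fat body and ovary, together exceeded 500 CPM in 4 male libraries (NINT males 2 and 3, F0 males 1 and 2). Any 2 replicates of a group were further apart than sampling noise, at 53.5 or more for chi-square divided by the number of genes. In the female libraries the male accessory gland genes summed to 25.7 to 43.3 CPM in INT, 28.3 to 112 CPM in NINT and 34.2 to 72.5 CPM in F0, and the testis genes to 29.9 to 46 CPM, 19.8 to 27.6 CPM and 29.4 to 114.8 CPM.

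The first comparisons set F12 females against founder females, and the chorion genes were several times higher in the F12 flies. In NINT females all 9 genes rose over F0 females, by 4.1-fold (Cp7Fc) to 13.8-fold (Cp18). In INT females 8 of the 9 rose, by 2.98-fold (Cp7Fc) to 11.1-fold (Cp18), and Cp15 did not pass the test. For each of the 9 genes every INT library and every NINT library lay above every F0 library. In whole flies, fewer cells of a type and less RNA per cell cannot be told apart.

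Cp38 was at 551, 901 and 858 CPM in INT females, at 1430, 1078 and 1675 CPM in NINT females and at 144, 240 and 195 CPM in F0 females. The lowest F12 library thus held more than the highest founder library. Cp36, the other major early gene, was at 359, 540 and 447 CPM in INT females, 714, 509 and 909 CPM in NINT females and 79.7, 117 and 92.4 CPM in F0 females. The late gene Cp15 was at 837, 894 and 420 CPM in INT females, at 823, 514 and 1279 CPM in NINT females and at 32.8, 196 and 282 CPM in F0 females. Its founder values were uneven, with F0 female 1 far under the other F0 libraries. Cp18 was at 442, 477 and 253 CPM in INT females, at 400, 308 and 737 CPM in NINT females and at 23.3, 70.6 and 11.3 CPM in F0 females. Here F0 female 3 was the lowest.

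The minor genes of the X cluster followed the same order. Cp7Fa averaged 36.2 ± 3.59 CPM in INT females, 62.1 ± 17.5 CPM in NINT females and 5.51 ± 1.97 CPM in F0 females (SD, n = 3 each). Cp7Fb averaged 44.9 ± 6.77, 68.7 ± 14.1 and 14.1 ± 4 CPM in INT, NINT and F0 females, and Cp7Fc 64.8 ± 10.8, 89.1 ± 30.2 and 21.8 ± 4.24 CPM. On 3L, Cp19 averaged 360 ± 74.2 CPM in INT females, 395 ± 177 CPM in NINT females and 61.8 ± 29.1 CPM in F0 females. Cp16 averaged 186 ± 45, 212 ± 92.1 and 19.4 ± 9.09 CPM in INT, NINT and F0 females.

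**Figure D1:**
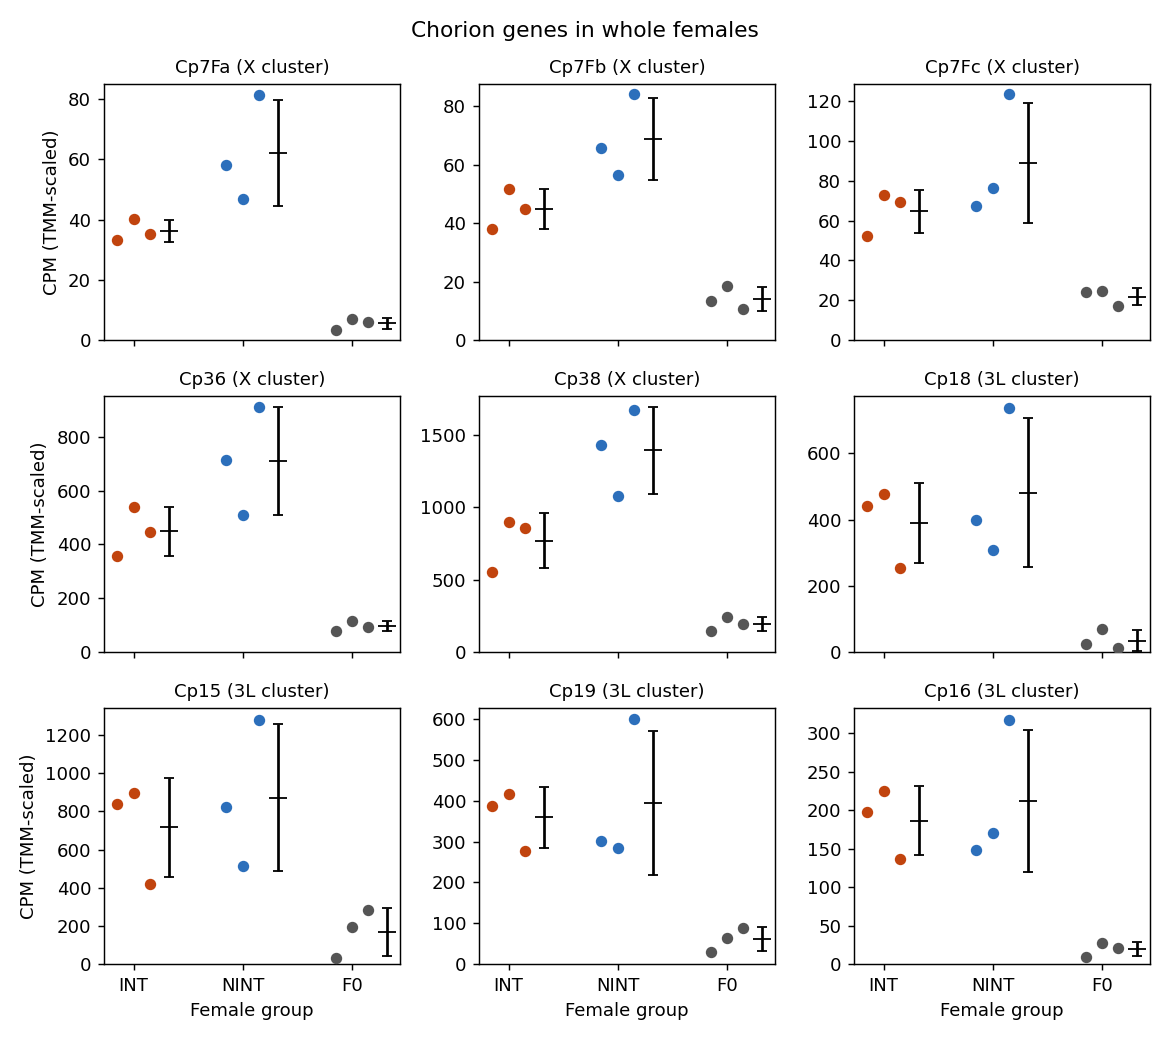
Level of each chorion gene in the 9 female libraries, in CPM on TMM-scaled library sizes (vertical axis from 0), for the INT, NINT and F0 groups. Coloured points are libraries, black bars the mean ± SD of 3 libraries; in each panel the F0 points lie below every INT and NINT point.

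By edgeR, NINT females against F0 females gave adjusted p-values of 0.000933 (Cp7Fa) to 0.0407 (Cp15) for the 9 genes, all called and all higher. Over all genes tested, 7.59% of 13169 were called higher in that comparison, and 18.1% had NINT libraries all above F0. The median log2 fold change of the chorion genes was 2.85, beside -0.01 for all genes tested. Cp15 lost its call without NINT female 1, 2 or 3 (adjusted p = 0.0943, 0.0671 and 0.129) or F0 female 2 (0.111), and without the libraries that stand apart (0.0977); the other 8 genes kept theirs when any 1 replicate was left out.

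By edgeR, INT females against F0 females gave adjusted p-values of 0.00625 (Cp7Fa) to 0.0336 (Cp18) for the 8 called genes and 0.187 for Cp15, whose log2 fold change was 2.08 (SE 0.68). Over all genes tested, 1.19% were called higher and 10.1% had INT libraries all above F0. The median log2 fold change of the chorion genes was 2.22, against -0.01 for all genes. Both comparisons use the same F0 libraries. The count of called chorion genes fell to 5 without INT female 1 and to 2, Cp7Fa and Cp36, without INT female 2; without INT female 3 and F0 females 1 and 2, which leaves 1 founder library, it was 4. It was 7 without F0 female 1, 6 without F0 female 2 and 9 without F0 female 3, where Cp15 was called (adjusted p = 0.0298), and DESeq2 also called 9. Flight muscle genes moved with the founder group: all 6 of the list were lower in NINT than in F0 females and passed the test, with summed levels of 1343 to 1890 CPM in NINT females and 3815 to 39086 CPM in F0 females. Of all genes, 14.9% were called lower in that comparison. In INT females the flight muscle sum was 2083 to 12107 CPM, and 0 of 6 were called against F0 by edgeR (3 at an unadjusted p under 0.05). None of the 6 genes was at 0 in any group. The part of flight muscle RNA in the chorion differences was not tested. Ribosomal RNA overlapped between INT and F0 females and was lowest in NINT females. With ribosomal RNA left out the counts of called chorion genes were 8 (INT) and 9 (NINT).

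The vitelline membrane (Vm) genes, which the follicle cells use at an earlier stage, had log2 fold changes nearer 0. Of the list of 17 vitelline membrane and early eggshell genes, 4 rose and 1 fell in NINT against F0 females (list median 0.15 on the log2 scale), and 2 rose and 0 fell in INT against F0 females (median 0.32). Each of the 6 Vm genes had a log2 fold change of -0.22 to 0.65 against F0, and none passed the test in either comparison (0 of 6 also at an unadjusted p under 0.05). The members that rose were Femcoat, an eggshell protein gene (9.06-fold in NINT, adjusted p = 0.00963, and 7.06-fold in INT, adjusted p = 0.0375), yellow-g2 (4.79-fold in NINT, adjusted p = 0.00639, and 3.29-fold in INT, adjusted p = 0.0395), yellow-g (4.58-fold in NINT, adjusted p = 0.00668) and the follicle cell gene Fcp3C (3.41-fold in NINT, adjusted p = 0.0188), the fourth by p, named after its value was seen. The peroxidase gene Pxd fell in NINT by 6.20 on the log2 scale (adjusted p = 0.0372).

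Set against the Vm genes within a library, the chorion genes were low in the founders. Summed chorion counts were 1.15, 1.51 and 1.27 times the summed Vm counts in INT females 1 to 3 and 2.06, 1.53 and 2.57 times in NINT females 1 to 3. In F0 females 1 to 3 the ratios were 0.115, 0.355 and 0.911. On the log2 scale the ratio averaged 0.38 ± 0.20 in INT, 1.01 ± 0.38 in NINT and -1.58 ± 1.5 in F0 females (SD, n = 3 each), and the groups of F12 libraries did not overlap the founders. F0 female 1 held 91271 Vm counts and 10471 chorion counts. F0 female 3 held 36864 Vm counts, the fewest of the 9 female libraries, and 33584 chorion counts, the most of the 3 founder libraries. These ratios are descriptions and carry no test.

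**Figure D2:**
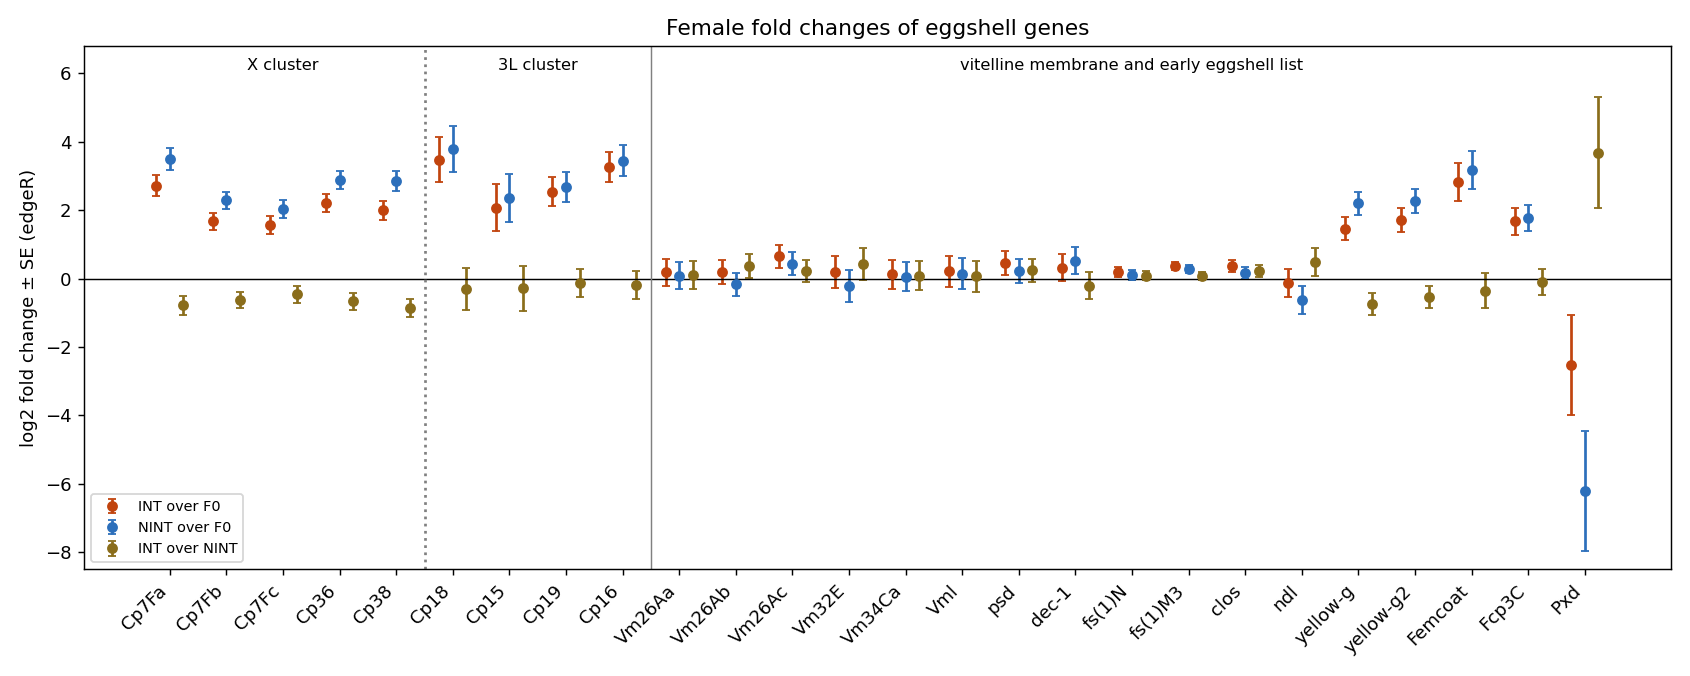
Log2 fold changes with standard errors from edgeR in females, for the 9 chorion genes and all 17 genes of the vitelline membrane and early eggshell list, of INT over F0, NINT over F0 and INT over NINT. The chorion genes lie between 1.58 and 3.78 against F0, yellow-g, yellow-g2, Femcoat and Fcp3C lie between 1.46 and 3.18, Pxd lies at -2.53 (INT) and -6.20 (NINT) and the other 12 listed genes between -0.63 and 0.65.

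Yolk protein genes, needed in the same egg chambers at the time of yolk uptake, rose in part in NINT females. Yp1 was 2.6-fold higher (adjusted p = 0.00826) and Yp3 1.9-fold higher (adjusted p = 0.0367) than in F0 females, and Yp2 had a log2 fold change of 0.82 (adjusted p = 0.0505). In INT females none of the 4 yolk list genes passed the test, with a list median of 0.58 and 2 genes at an unadjusted p under 0.05 (edgeR). The replication list, 28 genes of origin firing and its control, had 3 genes called higher in NINT than in F0 females and 0 in INT than in F0 females by edgeR, with medians of 0.58 and 0.27. Of all genes, 7.59% were called higher in NINT, so 3 of 28 is near that share. All 28 had a log2 fold change above 0 in NINT and 25 in INT, beside a median of -0.01 for all genes in each. In NINT 9 of the 28 lay above F0 without overlap and in INT 2, beside 18.1% and 10.1% of all genes. Unadjusted, 12 of the 28 (NINT) and 1 (INT) had p under 0.05, where 40.4% and 17.7% of all genes reached it. The called ones were l(1)G0148 (Cdc7, the kinase that activates origins, 1.58-fold, adjusted p = 0.0145), CDC45L, a part of the replicative helicase (1.38-fold, adjusted p = 0.0383), and Rbf, a retinoblastoma family gene that restrains origin firing in follicle cells (1.38-fold, adjusted p = 0.0451). Of 12 follicle cell regulators, usp, which encodes a chorion promoter binding nuclear receptor, rose in NINT (1.47-fold, adjusted p = 0.0316). In the same list slbo (2.52-fold lower, adjusted p = 0.016) and ct (2.75-fold lower, adjusted p = 0.0313) fell. Of all genes, 7.59% were called higher and 14.9% lower in NINT, so 1 of 12 higher and 2 of 12 lower are near those shares. In INT females 0 regulators passed the test by edgeR, and 0 had an unadjusted p under 0.05. Of 13 germline and oocyte genes, otu, exu and aub rose in NINT (1.77-, 2.11- and 1.51-fold) and aub in INT (1.47-fold, adjusted p = 0.0489). Among the testis genes aly was called higher in NINT than in F0 females (adjusted p = 0.016), on 53, 13 and 40 counts in NINT females and 0, 0 and 1 in F0 females, so no fold is given. It had 0 counts in each INT female. The testis gene bol was 3.15-fold lower in NINT (adjusted p = 0.027), with 0 called in INT females and 0 accessory gland genes called in either by edgeR (1 at an unadjusted p under 0.05 in each of these 3 cases).

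INT and NINT females were compared next, and 0 of the 9 chorion genes passed the test by edgeR, beside 0.995% of all genes called. All 9 had a negative log2 fold change, from -0.86 (Cp38) to -0.13 (Cp19), and 3 genes of the X cluster had groups that did not overlap. Cp38 averaged 770 ± 191 CPM in INT and 1394 ± 300 CPM in NINT females (SD, n = 3 each; log2 fold change -0.86, SE 0.27, adjusted p = 0.182 by edgeR). Cp7Fa (-0.78, SE 0.28, adjusted p = 0.244) and Cp7Fb (-0.62, SE 0.23, adjusted p = 0.257) were the others without overlap, beside 18.7% of all genes that lay lower in INT without overlap. An unadjusted p under 0.05 was reached by 4 chorion genes and by 15% of all genes, and DESeq2 called 1, Cp38 (adjusted p = 0.0287). A negative value was found for 48.8% of all genes. All 28 genes of the replication list were also below 0 (median -0.31). Of these, 20 lay lower in INT without overlap, beside 18.7% of all genes. By edgeR 0 of the 28 were called and 1 had an unadjusted p under 0.05. The vitelline list had a median of 0.08 with 0 called and 1 at an unadjusted p under 0.05. Of the other lists, regulators, yolk and germline had medians of 0.16, -0.29 and -0.08, testis and accessory gland 0.42 and -1.78, and flight muscle 4.05, each with 0 called by edgeR; before adjustment 2, 1, 1, 2, 0 and 4 of their genes had p under 0.05.

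The 5 X genes had a median log2 fold change of -0.66 in INT against NINT females, and the 4 genes on 3L had -0.23. Cp15, Cp16, Cp18 and Cp19 each turned positive without NINT female 3 (0.10, 0.23, 0.14 and 0.30), while all X genes stayed negative with any 1 replicate left out. Within libraries, the X cluster's counts over those of the 3L cluster were 0.555, 0.798 and 1.34 in INT females 1 to 3, 1.4, 1.39 and 0.98 in NINT females 1 to 3 and 2.73, 1.13 and 0.795 in F0 females 1 to 3. The INT, NINT and F0 ranges of this ratio overlap. Its mean on the log2 scale was -0.25 ± 0.64 in INT, 0.31 ± 0.29 in NINT and 0.43 ± 0.92 in F0 females (SD, n = 3 each).

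The widest spread of cluster make-up among females was in the founders. The 3L cluster took 64.3%, 55.6% and 42.7% of the chorion counts in INT females 1 to 3, 41.7%, 41.9% and 50.5% in NINT females 1 to 3, and 26.8%, 46.9% and 55.7% in F0 females 1 to 3. The lowest share, in F0 female 1, came with little Cp15. Counts of Cp15, the late gene, were 0.921, 0.62 and 0.322 times the sum of the early genes Cp36 and Cp38 in INT females 1 to 3 and 0.384, 0.324 and 0.495 times in NINT females 1 to 3. In F0 females 1 to 3 they were 0.147, 0.548 and 0.982 times that sum, so the founders hold both the lowest and the highest value. The 95% Wilson interval of a gene's share was at most 1.88 percentage points wide in any female library.

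Levels per transcript length, in reads per kilobase and CPM (RPKM), put Cp15 first in the mean of each female group. In F0 female 1, however, Cp15 was at 63.8 RPKM, below Cp38 (130 RPKM) and Cp36 (71.4 RPKM). In NINT females Cp15 averaged 1693 ± 747 RPKM, followed by Cp38 (1254 ± 270), Cp18 (743 ± 348), Cp36 (637 ± 179), Cp19 (606 ± 271) and Cp16 (406 ± 177 RPKM; SD, n = 3 each). From Cp15 to Cp16, the ranges of neighbours in this order overlap. The Cp7F genes stood well below, at 88.7 ± 18.1 (Cp7Fb), 78.7 ± 26.7 (Cp7Fc) and 60.1 ± 17 RPKM (Cp7Fa). The length used for Cp7Fb is that of the transcript listed in the tables, 775 bases; over the 2093 bases of all its exons its level would be 32.8 RPKM. In F0 females Cp15 averaged 330 ± 245 RPKM and Cp38 174 ± 43.2 RPKM, and the Cp7F genes 5.33 to 19.2 RPKM.

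Chorion transcripts in males were uneven between libraries of the same group. In 5 of 9 male libraries the 9 genes summed to 58 to 126 counts, among them all 3 INT males (126, 112 and 64), NINT male 1 (72) and F0 male 3 (58). The other 4 held 5443 and 6519 counts in NINT males 2 and 3 and 12270 and 16038 counts in F0 males 1 and 2. These 4 are the male libraries with more than 500 CPM of yolk protein genes. Among the 5 with few chorion reads, yolk levels differed. On plain totals NINT male 1 held 136 CPM of Yp1, Yp2 and Yp3, beside 11.3 to 14.7 CPM in INT males and 6.8 CPM in F0 male 3. In TMM-scaled CPM the chorion sum was 1.84 to 3.11 in INT males, 1.91 to 176 in NINT males and 1.44 to 408 in F0 males.

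**Figure D3:**
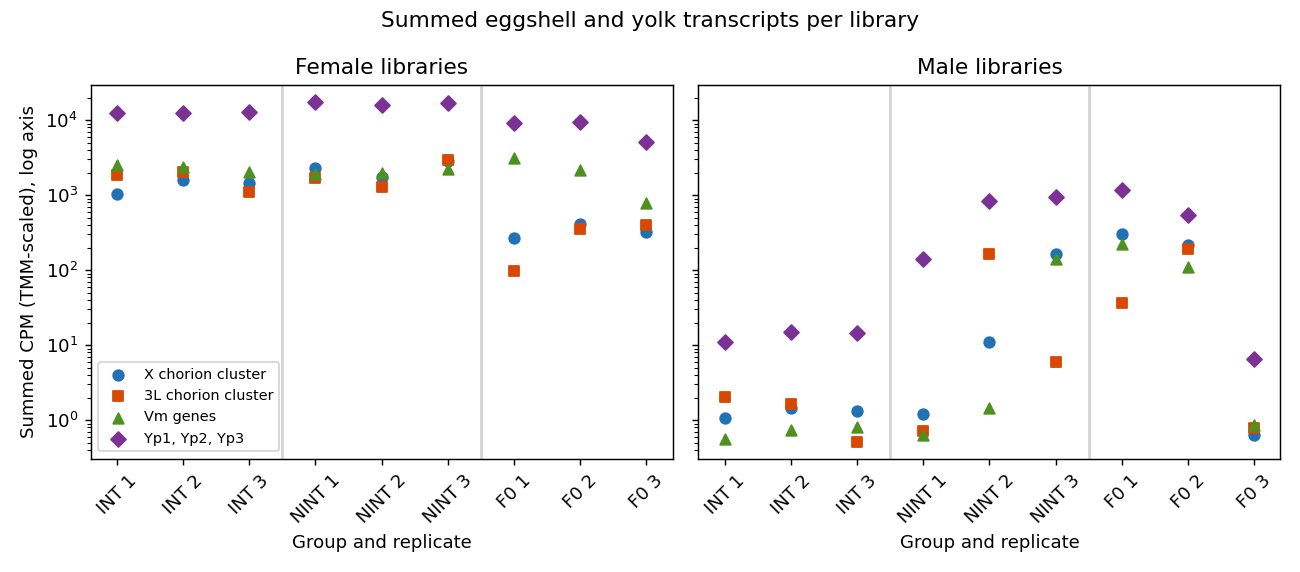
Summed level of the X chorion cluster, the 3L chorion cluster, the 6 Vm genes and Yp1, Yp2 and Yp3 in each female (left) and male (right) library, in TMM-scaled CPM on a log axis. In females the chorion sets lie lower in F0 than in INT and NINT while the Vm genes overlap between groups; in males NINT 2, NINT 3, F0 1 and F0 2 stand above the others, with different order among the sets.

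The 4 male libraries differed in which chorion genes they held. NINT male 2 had 93.8% of its chorion counts from the 3L cluster (95% Wilson interval 93.1% to 94.4%), with 2269 counts of Cp15 and 1755 of Cp18 but 121 of Cp36. It held 45 counts of the Vm genes. NINT male 3 showed the opposite, with 3.51% from the 3L cluster (interval 3.09% to 3.99%), 57 counts of Cp15, 2667 of Cp36 and 2964 of Cp38, and 5413 counts of the Vm genes. F0 male 1 was also rich in the X cluster (10.9% from 3L, 82 counts of Cp15, 978 of Cp19 and 6207 of Cp38). F0 male 2 held both, with 47.7% from 3L, 2655 counts of Cp15 and 4743 of Cp38. No female library reached such extremes, with 26.8% to 64.3% from the 3L cluster.

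**Figure D4:**
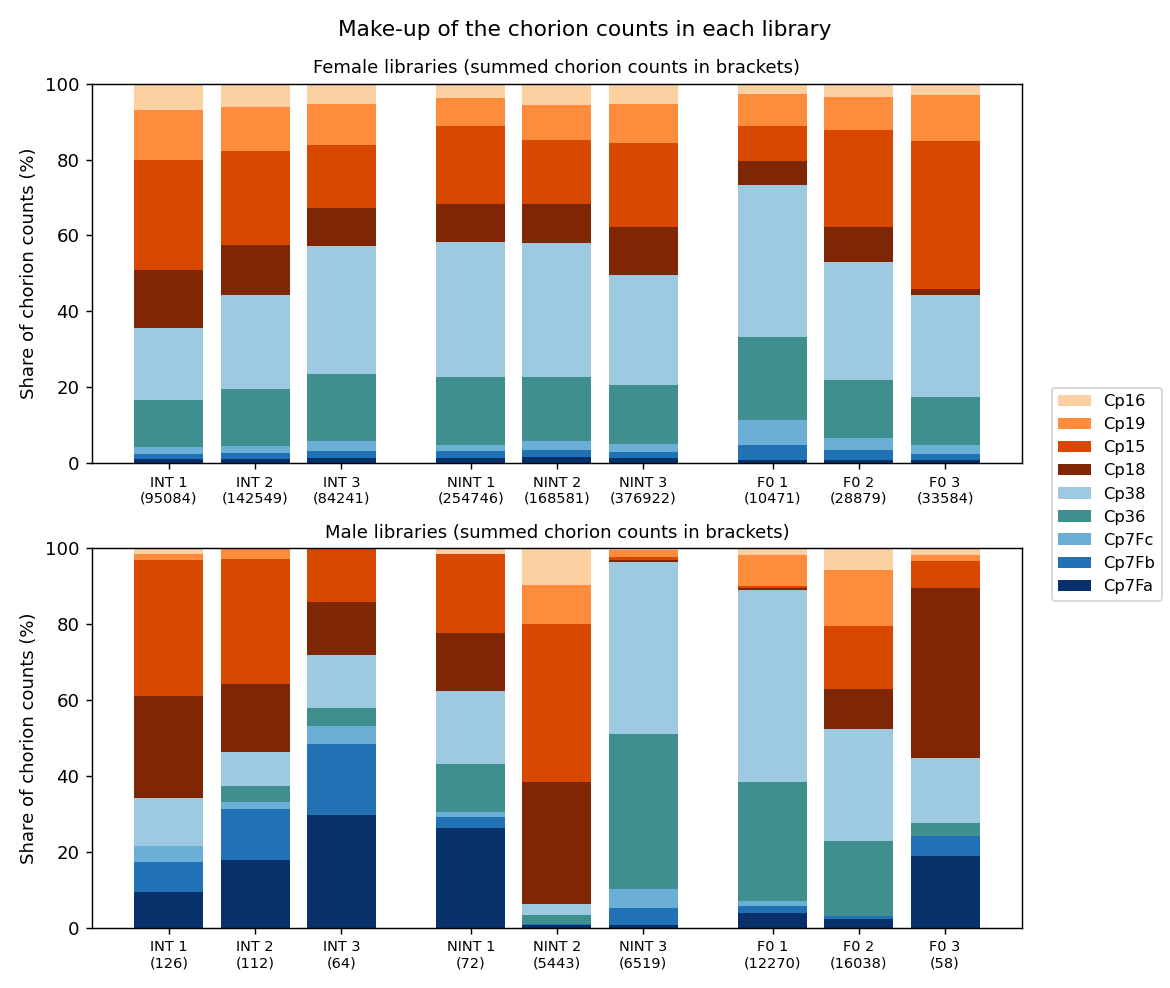
Share of each gene in the summed chorion counts of each library, in percent, for females (top) and males (bottom); blue and green are X cluster genes, orange and brown 3L cluster genes, and the summed counts stand under each bar. Each female library holds both clusters in quantity, whereas NINT male 2 is nearly all 3L cluster and NINT male 3 nearly all X cluster; bars of under 130 counts are imprecise.

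Set against the mean of the females of their own group on plain library totals, the chorion sum was 2.93% in NINT male 2 and 2.98% in NINT male 3, and yolk protein genes 3.56% and 4.33%. In F0 male 1 the chorion sum was 71.9% of the founder female mean and in F0 male 2 89.8%, while the yolk sum was 21.7% and 10.4% and the Vm sum 17.4% and 8.91%. On these plain totals the X cluster in F0 male 1 reached 124% of the founder female mean. On TMM-scaled library sizes, scaled within each sex, it did not exceed that mean (299 CPM beside 331 CPM). On the same scale the chorion sum was 336 CPM in F0 male 1 and 408 CPM in F0 male 2, beside a founder female mean of 617 CPM. Ribosomal RNA took 6.32% of the counts in F0 male 1 and 20.3% to 36.3% in F0 females. In the INT males the chorion sum was 0.0529% to 0.0996% of the INT female mean. The male accessory gland genes, which mark males, were present in all male libraries (3528 to 8774 CPM, 10 of 10 genes with counts in each group). F0 male 1 also stood apart from the other males in Act88F (1392 CPM on plain totals, against 9.44 to 13.5 CPM). The source of the chorion reads in these libraries was not tested.

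INT against NINT males gave 9 negative log2 fold changes (49% of all genes were negative), and 0 of 9 were called by edgeR, with adjusted p-values of 0.225 (Cp36) to 0.591 (Cp7Fa). An unadjusted p under 0.05 was reached by 4 of the 9, beside 16.4% of all genes, and DESeq2 called 3 (Cp36, Cp38 and Cp16). Cp7Fb, Cp7Fc, Cp36, Cp19 and Cp16 passed the filter on low counts only through the 4 male libraries rich in chorion reads, so they had to differ between libraries. The other 4 genes were over the minimum in 3 or more of the remaining 5 male libraries. The counts of genes in the male comparisons are therefore a description. Only Cp36 had groups that did not overlap (0, 5 and 3 counts in INT males, 9, 121 and 2667 counts in NINT males), where 10.8% of all genes lay lower without overlap. With so few reads in INT males, no fold is given. edgeR called 0.0399% of all genes in this comparison. In the same comparison the vitelline and early eggshell list had a median of -3.98, the yolk list -6.23 and the germline list -1.23, with 0 called by edgeR and 8 of 16, 4 of 4 and 9 of 13 at an unadjusted p under 0.05. Their part in the chorion values was not tested.

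Against F0 males, 0 of 9 were called in INT (lowest adjusted p = 0.114, Cp7Fa) and 0 of 9 in NINT (lowest 0.113, Cp7Fa) by edgeR. An unadjusted p under 0.05 was reached by 5 and by 1 gene, where 19.1% and 31.9% of all genes reached it, and DESeq2 called 5 (Cp7Fa, Cp36, Cp38, Cp19 and Cp16) and 1 (Cp7Fa). Of all genes, edgeR called 1.82% and 5.04%. Without F0 male 3, the founder male with few chorion reads, 1 gene was called in each comparison, Cp7Fa (adjusted p = 0.0222 in INT and 0.028 in NINT). Without the 4 male libraries that stand apart, 1 NINT and 1 F0 male remained. Cp7Fc, Cp36, Cp19 and Cp16 were over the count minimum in 0 of the 5 male libraries left. Nothing is read from the male comparisons in that setting. Against F0 males the vitelline list had a median of -4.70 in INT and -0.74 in NINT and the yolk list -6.32 and 0.09. Of the listed genes, Cf2, a chorion regulator, was called higher in INT (1.69-fold, adjusted p = 0.0209) and in NINT (1.5-fold, adjusted p = 0.0304), clos lower in INT (3.24-fold, adjusted p = 0.0259) and the germline gene bam higher in NINT (2.49-fold, adjusted p = 0.046).

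Females against males over the 3 groups gave 9 of 9 chorion genes called higher in females, with adjusted p-values of at most 0.000167 by edgeR. Of all genes tested, 35.6% were called higher in females. This contrast is an average over groups that include the INT males, at 0 to 45 counts per gene, so no fold is given. In the founders Cp7Fa averaged 5.51 ± 1.97 CPM in F0 females and 7.40 ± 6.47 CPM in F0 males, and Cp38 193 ± 48.0 CPM in F0 females and 96.9 ± 87.3 CPM in F0 males (SD, n = 3 each, library sizes scaled within each sex). The difference between the sexes within the founders was not tested. All 9 kept their call with any 1 replicate left out and without the 7 libraries that stand apart. Those 7 include the 4 male libraries rich in chorion reads, so leaving them out removes the highest male values. The kept calls in that setting are therefore no check of this contrast. For the interaction of sex with INT against NINT, 0 of 9 were called by edgeR (lowest adjusted p = 0.234, Cp36), 5 had an unadjusted p under 0.05 beside 12.2% of all genes, and DESeq2 called 2 (Cp36 and Cp16). The unevenness of the male libraries enters these values too, and nothing is read from the counts. Of all genes, edgeR called 0.268% in the interaction.

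The genes whose pattern over the 9 female libraries was most like the mean log2 CPM of the chorion genes were, by Pearson correlation, Mur11Da (0.995), CG13083 (0.991), CG15571 (0.989), CG32243 (0.987), CG4066 (0.986), CG32302 (0.985), CR44030 (0.985) and Muc12Ea (0.984). These correlations are descriptions: all genes share the 9 libraries, their depth and the gap between F12 and F0. The chorion genes themselves had correlations of 0.905 (Cp15) to 0.994 (Cp7Fa) with their own mean. The mucin gene Muc12Ea averaged 563 CPM in INT, 677 CPM in NINT and 123 CPM in F0 females, and CG13083 37.6, 54.2 and 5.08 CPM in the same groups.

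Of 17 other genes that overlap a cluster or start within 20 kb of its ends, 16 were tested in females. In INT against F0 females 1 was called higher, CG43965 (3L, 8725520 to 8725774, minus strand, log2 fold change 2.40, adjusted p = 0.00641), and 0 were called lower by edgeR, beside 1.19% of all genes called higher. CG43965 lies just before Cp18 and averaged 11.3 CPM in INT, 14.2 CPM in NINT and 2.13 CPM in F0 females. In NINT against F0 females 4 were called higher, CG43965 (2.73, adjusted p = 0.00132), CG6511, which overlaps it on the other strand (0.85, adjusted p = 0.0196), otu, a germline gene past the right end of the X cluster (0.82, adjusted p = 0.00531), and CG33223 (1.32, adjusted p = 0.0344). Of all genes, 7.59% were called higher and 14.9% lower in NINT, so 2 of 16 lower is near that share. Lower in NINT were Prm, the paramyosin gene of muscle next to Cp16 (-2.95, adjusted p = 0.0256), and org-1 (-1.43, adjusted p = 0.0225). Near the X cluster Es2, Sptr, CG15347, CG12116, CG33181, CG32713 and CR43834 did not pass the test in either comparison. Their log2 fold changes against F0 were -0.22 to 0.60. Near the 3L cluster CG32022, SrpRbeta and CG13306 did not pass either, at -0.52 to 0.40.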

How the data were processed

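RNA of whole flies was sequenced in 18 libraries, 3 for each of 6 groups. The deposited tables, 1 for each sex, hold counts: raw read counts per gene, unscaled, for 16747 entries, beside the length of 1 transcript per gene. Build dm6 and the tool DESeq2 come from the submitters' processing notes. No aligner, counting tool or strand setting is named in these sources. The labels' protocols name a stranded library kit. Gene positions are those of the deposited tables (dm6). For the 9 chorion genes they were checked against the Ensembl annotation of the same build. Only Cp38 differed, with its end at 8483311 there and at 8483174 in the deposited positions. Positions of other genes were not checked.

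The counts were analysed in edgeR 4.0.16 (R 4.3.3). Each sex was fitted on its own (9 libraries, a coefficient for each group) after filterByExpr with a minimum count of 10 and a minimum total of 15, and with TMM scaling. Quasi-likelihood tests were two-sided, with p-values adjusted by Benjamini-Hochberg over all genes tested and calls at an adjusted p under 0.05. A fit of all 18 libraries gave the contrast of females with males and the interaction of sex with INT and NINT. All 9 chorion genes passed the filter in both sexes. In males 5 of them passed only through the 4 libraries rich in chorion reads. Levels are CPM on TMM-scaled library sizes of the same sex; RPKM divides these by the transcript length. Ratios within a library use summed counts and carry no p-value, and intervals of shares are 95% Wilson intervals that cover counting error only. The fitting code was tested before use on simulated data, with 4-fold changes in 200 genes and the same dispersion for all genes. That run checked the code only and gives no error rates for these data.

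The 9 genes and the lists of other genes were chosen with earlier results of these data known. The lists hold vitelline membrane and early eggshell, origin firing and replication, follicle cell regulator, yolk, germline, male accessory gland, testis and flight muscle genes. Of each list the genes named are called ones, up to 3 in each direction by p, with Yp1, Yp2, Yp3, Act88F and Acp36DE as library checks; the genes most like the chorion genes are the 8 with the highest Pearson correlation. Alternatives were DESeq2 1.42.0, RLE scaling, no filter on low counts, ribosomal RNA left out (109 entries), the replicate number as a block, each replicate left out in turn, and the 7 libraries that stand apart left out (male libraries above 500 CPM of Yp1, Yp2 and Yp3, female libraries above 1000 CPM of Act88F, both on plain library totals). Python 3.11.15 with pandas 2.3.3 served for tables, and matplotlib 3.10.9 for plots.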

Additional observations from a re-analysis of the deposited data

How the results depend on the processing

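The counts of called chorion genes were the same under RLE scaling, without a filter on low counts and without ribosomal RNA in all 8 comparisons. DESeq2 moved 5 of the 8: it called 1 chorion gene in INT against NINT females, 3 in INT against NINT males, 5 in INT against F0 males, 1 in NINT against F0 males and 2 in the interaction, where edgeR called 0 each. With the replicate block INT against F0 females had 4 called chorion genes in place of 8; the block changed no other count of chorion genes by over 1.5 times. Samples with the same number had correlated deviations over 0.1 in 5 of 18 pairs (range -0.456 to 0.439), so the number was not taken as a pairing. Without the libraries that stand apart the same comparison had 4. That setting leaves 1 F0 female, which is assumed to vary like the other groups. With each replicate left out in turn the counts were 2 to 9 in INT against F0 females, 8 to 9 in NINT against F0 females, 0 to 1 in both male comparisons with F0, and unchanged in the other 4 comparisons.

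In INT against NINT females Cp19 had a log2 fold change of 0.022 without the libraries that stand apart; leaving out replicates gave -0.33 to 0.30 for Cp19, -0.55 to 0.14 for Cp18, -0.55 to 0.10 for Cp15 and -0.39 to 0.23 for Cp16. Of 551 single-gene values under alternatives, 515 kept their direction and side of the threshold. The ratios between gene sets moved by less than 1 SD with mean log2 counts. In groups of 3, leaving out 1 library cannot move a difference by 1 pooled SD, so only its sign is described. In females X over 3L changed sign in NINT against F0 (-0.51 to 0.38, log2), and Cp15 over Cp36 plus Cp38 in both comparisons with F0. Chorion over Vm kept its sign in females. In males every ratio changed sign in INT against NINT and in NINT against F0, and X over 3L also in INT against F0. The causes were not tested.

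Counts over all genes moved more. Called genes in INT against NINT females were 131, and 870 by DESeq2, 3 with the block and 839 without the libraries that stand apart. In INT against NINT males they were 6, and 934, 0 and 0 in that order of settings. In INT against F0 females they were 279, and 983, 80 and 166, and in INT against F0 males 274, and 1416, 63 and 0. In NINT against F0 females they were 2961, and 4503, 850 and 867, and in NINT against F0 males 759, and 3125, 149 and 0. In the interaction they were 41, and 505, 0 and 2, with 22 under RLE scaling, 21 without a filter and 25 without ribosomal RNA. Leaving out replicates gave 4 to 153, 0 to 3956, 30 to 4310, 28 to 482, 583 to 6851, 84 to 924 and 5 to 702 in the same order of comparisons. In the male libraries with few chorion reads a gene's share of the chorion counts has a Wilson interval of up to 24.8 percentage points, so their make-up is not resolved at this depth.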

Other observations

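Cp18 in F0 female 3 stood apart from its neighbours in the 3L cluster, a value picked after it was seen. It held 525 counts there, 1.56% of the chorion counts, beside 13079 counts of Cp15, which starts less than 2 kb further along, and 4130 of Cp19. In the other 8 female libraries Cp18 took 6.44% to 15.3% of the chorion counts.

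In the 5 male libraries with few chorion reads, Cp7Fa made up more of the chorion counts than in females. It held 12, 20 and 19 counts in INT males, 19 in NINT male 1 and 11 in F0 male 3, or 9.52% to 29.7% of these small sums, while its share in female libraries was 0.843% to 1.54%. Higher shares were not confined to Cp7Fa. In the same 5 libraries Cp7Fb took 2.78% to 18.8%, beside 1.31% to 3.72% in females. Cp18 took 14.1% to 44.8%, beside 1.56% to 15.3% in females, so both ranges overlap those of females. Cp36 held 0 to 9 counts in these 5 libraries. The span of CG33223, described above, covers the X cluster genes among these, and whether it shares reads with them was not tested.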
